A study of Mus musculus with 12 samples.

Results

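Genes that make, break down or carry D-amino acids were followed through laser-captured spinal cord white matter. They were Dao, Ddo, Srr, Slc7a10 and Slc1a4, 5 of the 46078 genes in the count table, and were found by gene symbol. Dao was selected on its measured fall in lesions at both ages, so its differences between naïve and injured tissue are given as a description with no test. The other 4 genes were set beside it for their part in D-serine and D-aspartate metabolism. The 5 genes, and the lists and markers used below, were chosen with earlier results of these data known. Counts of these genes that passed a test are therefore descriptions. RNA was sequenced from the ventrolateral white matter of C57Bl6 mice in 4 groups, with 3 pools in each group and 5 mice in each pool. Naïve mice, young or middle-aged, had no lesion, and injured mice of both ages had received lysolecithin, a detergent that strips myelin, 72 h before the tissue was taken. The labels give age only as young and middle-aged, and the methods give 6 weeks and 8 months. The sources used here describe no mice whose cord was injected with vehicle in place of lysolecithin for this experiment, so the needle injury and the lysolecithin cannot be told apart, and a pool hides the spread among its 5 mice.

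D-serine is made from L-serine by serine racemase, the product of Srr, and binds the NMDA type of glutamate receptor beside glutamate. It is broken down by D-amino acid oxidase, the product of Dao, a peroxisomal enzyme best known in the nervous system from astrocytes of the hindbrain and spinal cord. D-aspartate oxidase, the product of Ddo, breaks down D-aspartate in peroxisomes, and the carriers Asc-1 (Slc7a10) and ASCT1 (Slc1a4) move serine across the cell membrane.

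Each pool held between 9834447 and 12807437 counts, so that 3 counts, taken as the floor of detection, equalled 0.234 to 0.305 CPM (counts scaled to a fixed library total). CPM values below were scaled with TMM factors, which correct for differences in library composition. Lesions differed from naïve tissue in cell makeup as well. The 9 astrocyte markers summed to between 9958 and 11983 CPM in the naïve pools and between 3607 and 5734 CPM in the injured pools. The 6 oligodendrocyte markers ranged from 52942 to 101820 CPM in naïve and from 7920 to 20232 CPM in injured pools, while the 6 myeloid markers ranged from 71.7 to 147 CPM and from 1371 to 1947 CPM. The 5 neuron markers were also present, at 689 to 1999.7 CPM in naïve and 284 to 491 CPM in injured pools. In such bulk tissue, fewer cells of a type and less RNA per cell cannot be told apart.

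Dao was nearly lost from lesions at both ages. The gene (ENSMUSG00000042096) lies on the forward strand at chr5:114003703-114025682 of GRCm38. Counts were 136, 140 and 162 in the young naïve pools and 199, 97 and 168 in the middle-aged naïve pools. They were 3, 8 and 6 in the young injured pools and 7, 1 and 3 in the middle-aged injured pools. Every naïve pool was far above every injured pool, and 3 of the 6 injured pools were at or under the floor of 3 counts. Mean levels were 14.1 ± 2.82 CPM (SD, n = 3) in young naïve and 14.2 ± 4.51 CPM in middle-aged naïve tissue, against 0.430 ± 0.201 CPM and 0.306 ± 0.254 CPM in the lesions.

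The fitted log2 fold change of Dao from naïve to injured was -5.01 in young mice, or 32.3-fold lower, and -5.50 in middle-aged mice, or 45.2-fold lower. Of the 15866 genes tested, 3 in young and 10 in middle-aged mice had a lower log2 fold change. Summed over pools, 438 counts in young naïve tissue stood against 17 in lesions, which was 3.50% of the naïve level by library totals (95% counting interval 2.02 to 5.67). In middle-aged mice 464 counts stood against 11, or 2.29% (1.14 to 4.14). These intervals cover counting error only, and as Dao was selected on this fall, they and the rank above test nothing. The single count of the middle-aged injured replicate 2 and the 7 counts of replicate 1 mark the width of that group, and without replicate 1 the log2 fold change was -6.33.

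Age did not separate the pools of Dao. In naïve mice the middle-aged level differed from the young by 0.01 on the log2 scale (SE 0.31, edgeR adjusted p = 0.998), and in lesions by -0.48 (SE 0.62, edgeR adjusted p = 0.971), with overlapping pools in both. With 11 and 17 counts in all, the lesion comparison was imprecise, and a modest difference was not detectable at this depth. Dao was also selected for its fall at both ages, so low and overlapping levels in both injured groups follow in part from that choice.

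The other oxidase, Ddo, was also lower in lesions, by less. It lies on the forward strand at chr10:40630011-40681847 (ENSMUSG00000063428). Young naïve pools held 11.7, 11.045 and 9.77 CPM, and young injured pools 4.03, 6.27 and 5.42 CPM. Middle-aged naïve pools held 13.5, 48.6 and 15.5 CPM, and middle-aged injured pools 3.15, 3.27 and 6.21 CPM. Naïve and injured pools did not overlap at either age, and 1 naïve pool, middle-aged replicate 2, stood far above all others.

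The log2 fold change of Ddo in lesions was -1.05 in young mice (SE 0.43, edgeR adjusted p = 0.0507), just outside the threshold of 0.05, and -2.62 in middle-aged mice (SE 0.44, edgeR adjusted p = 0.000144). Without the high naïve pool the middle-aged value was -1.78, a fall that still passed the test. The young value passed under several other settings, among them DESeq2 (-1.04, adjusted p = 0.0308). The middle-aged naïve mean exceeded the young naïve mean by 1.25 on the log2 scale (SE 0.41, edgeR adjusted p = 0.117), which fell to 0.42 without that pool. The injury effect differed between ages by -1.56 (SE 0.61, unadjusted p = 0.0215 in the edgeR model, adjusted p = 0.387), and by -0.73 without it.

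Among all genes tested, the 2 with levels most like those of Ddo over the 12 pools were Acy1, an aminoacylase, and Tnni1, a troponin of slow muscle fibres. Likeness was the root mean square difference of log2 CPM after each gene was centred on its own mean, 0.27 for Acy1 and 0.31 for Tnni1. Acy1 held 18.0, 52.4 and 23.5 CPM in the middle-aged naïve pools, and Tnni1 held 9.88, 42.4 and 18.9 CPM. Both were highest in the pool in which Ddo was highest. They were chosen for likeness to Ddo over these same pools, so the shared peak is part of that choice.

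Srr, the gene of the enzyme that forms D-serine, differed far less. It lies on the reverse strand at chr11:74906359-74925948 (ENSMUSG00000001323). Its level was 85.1, 123 and 112 CPM in young naïve pools and 75.1, 88.3 and 79.8 CPM in young injured pools, which overlapped. It was 85.2, 159.5 and 105 CPM in middle-aged naïve pools and 73.2, 66.2 and 79.8 CPM in middle-aged injured pools, which did not overlap. Its log2 fold change from naïve to injured was -0.39 in young mice (SE 0.20, edgeR adjusted p = 0.107), against -0.67 in middle-aged mice (SE 0.20, edgeR adjusted p = 0.00942), so that Srr fell 1.59-fold in the older lesions and did not pass the test in the younger. Without middle-aged naïve replicate 2, the highest pool, the middle-aged value was -0.38 (edgeR adjusted p = 0.0497).

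The exons of Srr overlap those of Tsr1, a ribosome maturation factor gene on the opposite strand, and 28.1% of the 31-base words in Srr transcripts also occur in other genes. Whether counting used the strand is not given in the sources used here, so some reads of Srr may be shared with these genes. Tsr1 held 341 to 600 counts in a pool, and its log2 fold changes were 0.06 and 0.01 in young and middle-aged mice (edgeR adjusted p = 0.792 and 0.968). Smg6 held 95 to 186 counts, with log2 fold changes of -0.06 and -0.36 (edgeR adjusted p = 0.827 and 0.168).

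The promoters of the 3 enzyme genes are shown because Dao, Ddo and Srr differed so much in how far they changed. The sequences are the bases before the first annotated start in RefSeq on GRCm38.p6, read 5′ to 3′ along the gene's own strand. They leave out bases annotated as untranslated region, and other kinds of exon, of these or other genes, were not looked for. Capitals mark 7 short motifs searched on both strands: the TATA box TATAAA, the CCAAT box, the GC box GGGCGG, the nuclear factor I element TTGGC, the E-box CANNTG, the SOX core AACAAT and the nuclear receptor element AGGTCA. The windows were Dao at chr5:114003485-114003702, Ddo at chr10:40629761-40630010 and Srr at chr11:74925949-74926198 on the reverse strand.
Dao: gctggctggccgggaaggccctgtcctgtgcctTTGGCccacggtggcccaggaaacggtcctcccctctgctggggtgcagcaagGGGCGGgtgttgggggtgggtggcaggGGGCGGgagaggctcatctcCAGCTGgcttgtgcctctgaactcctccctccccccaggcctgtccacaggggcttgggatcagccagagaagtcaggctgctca
Ddo: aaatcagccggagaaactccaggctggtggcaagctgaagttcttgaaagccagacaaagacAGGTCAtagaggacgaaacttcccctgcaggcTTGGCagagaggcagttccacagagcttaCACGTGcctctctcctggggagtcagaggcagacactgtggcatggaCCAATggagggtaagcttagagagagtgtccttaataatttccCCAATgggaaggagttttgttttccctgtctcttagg
Srr: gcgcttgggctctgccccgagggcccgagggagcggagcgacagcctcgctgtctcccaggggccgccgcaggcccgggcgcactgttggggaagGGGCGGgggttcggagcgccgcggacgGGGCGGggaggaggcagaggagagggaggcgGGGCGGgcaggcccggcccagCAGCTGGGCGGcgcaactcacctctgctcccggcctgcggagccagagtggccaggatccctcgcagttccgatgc

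Srr held 4 GC boxes and the first window of Dao 2, and the window of Ddo held none. RefSeq gives 3 starts for Dao, and the windows before the other 2 held no GC box. The last of them held a CCAAT box and 2 E-boxes. The middle one held a TTGGC and an AGGTCA, both within bases annotated as untranslated region of Dao itself. Of 32851 promoter windows of 250 bases in the RefSeq table, 32.7% held a GC box. Ddo held 2 CCAAT boxes (33.8% of windows held at least 1), an AGGTCA (14.0%), a TTGGC (41.5%) and an E-box (66.2%). Dao held an E-box and a TTGGC in the bases printed, and Srr an E-box that shares 1 base with its last GC box. None of the 3 windows held TATAAA (12.4% of windows) or AACAAT (9.4%). A match is a run of letters and not a measured site.

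Slc7a10, the gene of the carrier Asc-1, which exchanges D-serine and glycine with other small amino acids, fell in lesions at both ages. It lies on the forward strand at chr7:35186385-35201114 (ENSMUSG00000030495). Levels were 37.2, 28.8 and 18.0 CPM in young naïve pools and 9.24, 12.9 and 11.7 CPM in young injured pools. They were 24.5, 24.5 and 18.7 CPM in middle-aged naïve pools and 7.96, 8.85 and 8.54 CPM in middle-aged injured pools. All naïve pools were above all injured pools, and the young naïve pools spread widest.

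The log2 fold change of Slc7a10 was -1.31 in young mice (SE 0.24, edgeR adjusted p = 0.000313), and the middle-aged value was -1.42 (SE 0.24, edgeR adjusted p = 0.000173), or 2.48-fold and 2.67-fold lower. In the young naïve pools the summed neuron markers were 1999.7, 1277 and 689 CPM, in the same order as Slc7a10. The orders differed in the young injured pools, where the markers were 419, 284 and 491 CPM. They differed too in middle-aged naïve (1177, 1250 and 1207 CPM) and middle-aged injured pools (381, 411 and 461 CPM). Snap25 made up most of the marker sum, at a mean of 1266 CPM in young naïve pools against 18.4 for Gad1, the next highest. The part of neuronal RNA in the level of Slc7a10 was not tested. Lrp3, on the opposite strand with overlapping exons, also fell, with log2 fold changes of -0.95 and -1.11 (edgeR adjusted p = 0.000490 and 0.000127). Since 14.9% of the 31-base words of Slc7a10 occur in Lrp3, the 2 genes may share reads.

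Slc1a4, the gene of the sodium-dependent serine and alanine exchanger ASCT1, had the narrowest change. It lies on the reverse strand at chr11:20302180-20332713 (ENSMUSG00000020142). Levels were 39.9, 35.2 and 32.3 CPM in young naïve pools and 28.3, 30.8 and 30.2 CPM in young injured pools. In middle-aged mice they were 29.2, 35.8 and 31.01 CPM in naïve pools and 24.5, 20.1 and 21.6 CPM in injured pools. Neither age showed overlap between naïve and injured pools, though the gap in young mice was small. Young lesions gave a log2 fold change of -0.27 (SE 0.14, edgeR adjusted p = 0.132) and middle-aged lesions one of -0.54 (SE 0.15, edgeR adjusted p = 0.00558). Between the injured groups the middle-aged level differed by -0.43 on the log2 scale without passing the test over all genes (edgeR adjusted p = 0.232).

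**Figure D1:**
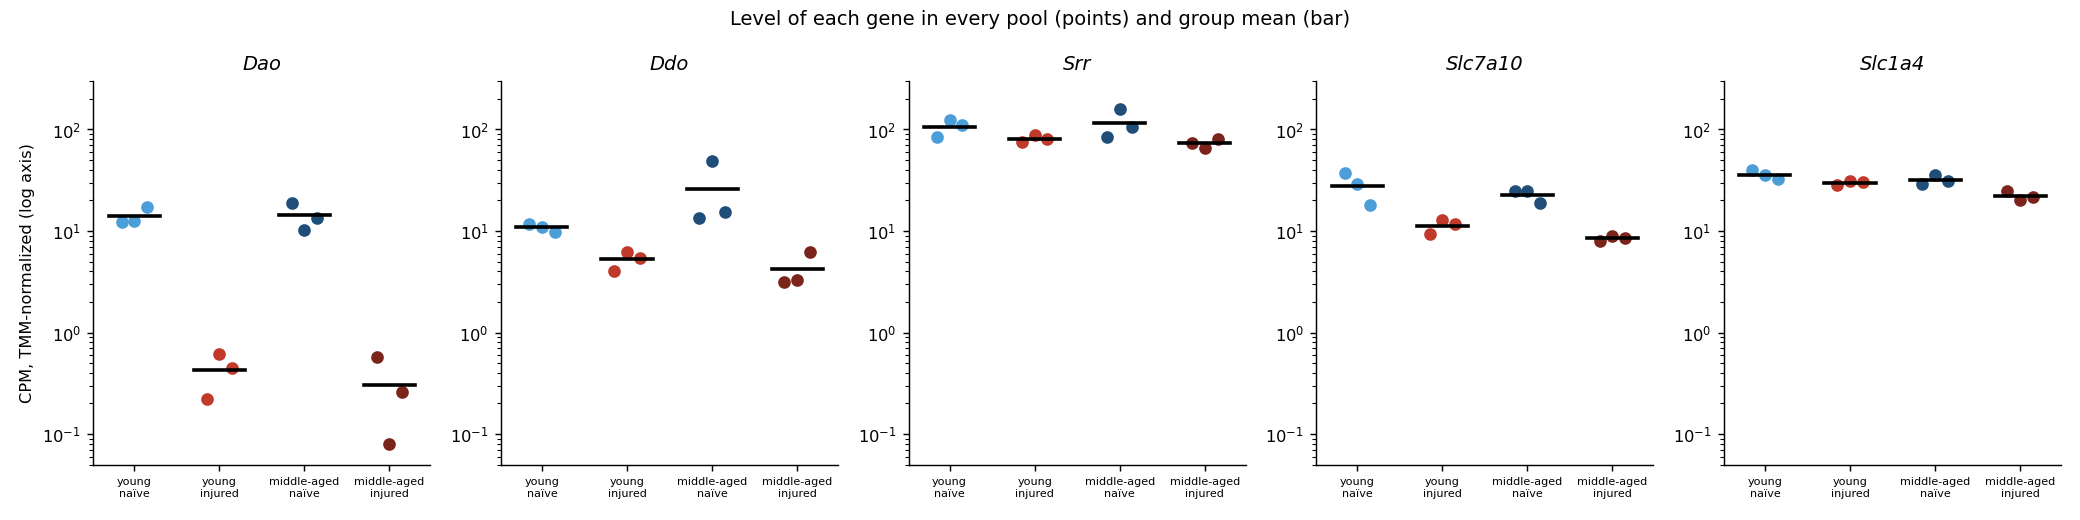
Level of the 5 genes in each of the 12 pools, in CPM with TMM factors on a log axis; each point is a pool of 5 mice and each bar the mean of 3 pools. Dao lies at 10.2 CPM or more in all naïve pools and at 0.619 CPM or less in all injured pools, while the other 4 genes shift by less.

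Besides Dao, 1 of 4 genes was called lower in young lesions, Slc7a10, where 26.3% of all genes tested were lower and 28.3% higher. In middle-aged lesions 4 of 4 were called lower, against 29.3% of all genes lower and 29.2% higher. None of the 4 was called higher at either age. Both oxidases had larger falls in middle-aged than in young mice, and so had the racemase and both carriers, but the difference between ages was called for 0 of the 4 genes tested (0.139% of all genes were). Their unadjusted p-values for that difference ranged from 0.0215 for Ddo to 0.761 for Slc7a10 in the edgeR model, so 1 of 4 was under 0.05. Between ages in naïve mice 0 of 5 genes were called, with Ddo alone at an unadjusted p under 0.05 (0.00898), and 3.80% of all genes were called. In injured mice 0 of 5 were called, with Slc1a4 alone under 0.05 unadjusted (0.00962), and 1.15% of all genes were called. Dao is among these 5, though its selection favoured low levels in both injured groups. DESeq2 called Ddo between the naïve groups (adjusted p = 0.0450).

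**Figure D2:**
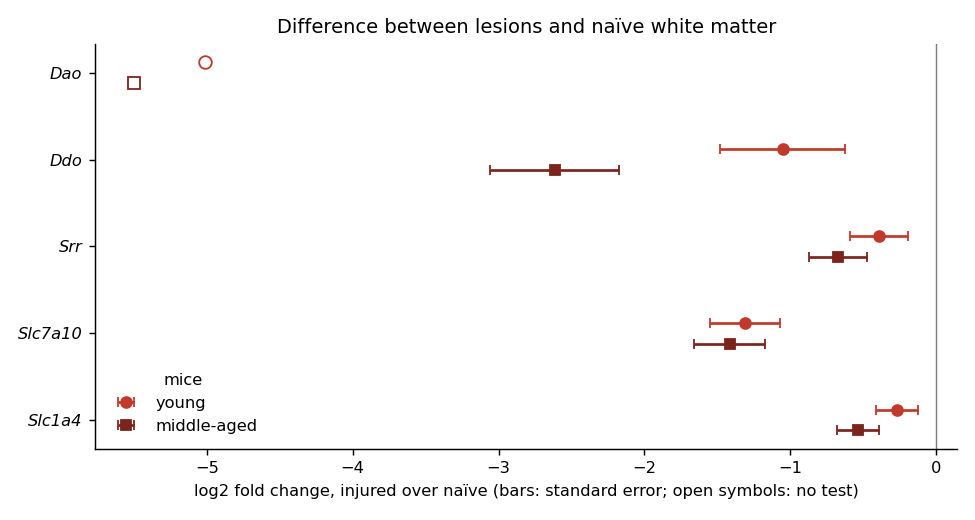
Log2 fold change from naïve to injured white matter for each gene, with circles for young and squares for middle-aged mice; bars are standard errors of the edgeR fit. Open symbols for Dao carry no bar because the gene was chosen for this difference, and its values of -5.01 and -5.50 lie far left of all others.

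Levels were compared between genes only per length, as TPM, the unit of transcript abundance scaled to a fixed total, from the counts and the joined exons of each gene. In young naïve tissue Srr was highest at 75.6 ± 13.9 TPM, followed by Slc7a10 at 42.7 ± 14.0, Slc1a4 at 29.4 ± 2.67, Dao at 15.5 ± 3.50 and Ddo at 3.93 ± 0.283 TPM. Slc7a10 and Slc1a4 overlapped across pools there, and the other neighbours did not. In middle-aged naïve tissue the order by mean TPM was the same, with Srr at 77.2 ± 19.5, Slc7a10 at 32.7 ± 4.30, Slc1a4 at 24.9 ± 1.06, Dao at 14.9 ± 5.48 and Ddo at 8.56 ± 5.83 TPM. Dao and Ddo overlapped in that group.

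The order changed in lesions, where Dao moved below Ddo to the last place and Slc1a4 passed Slc7a10. Young lesions held Srr at 62.7 ± 3.71, Slc1a4 at 26.8 ± 1.19, Slc7a10 at 18.9 ± 2.88, Ddo at 2.07 ± 0.409 and Dao at 0.512 ± 0.227 TPM. Middle-aged lesions held them in the same order at 52.2 ± 3.80, 18.3 ± 1.76, 13.1 ± 0.865, 1.53 ± 0.601 and 0.336 ± 0.279 TPM. No neighbours in the order overlapped in either lesion group. The place of Ddo depends on the length used, because its joined exons span 8925 bases and its longest transcript 3117. By longest transcript Ddo stood at 20.2 ± 13.8 TPM in middle-aged naïve tissue, above Dao at 17.7 ± 6.50, and it stayed below Dao in young naïve tissue (9.20 against 18.2 TPM).

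**Figure D3:**
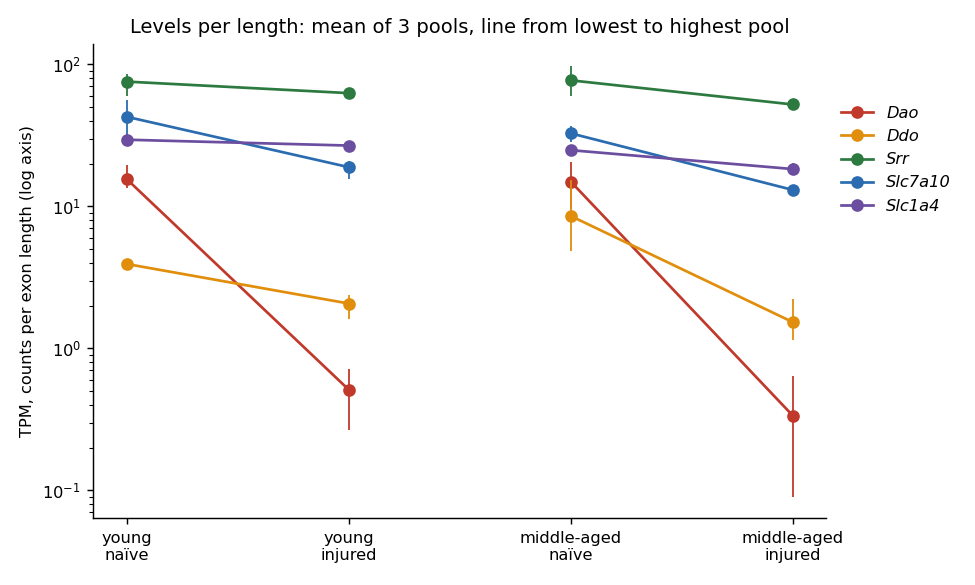
Mean level per exon length in TPM on a log axis, with vertical lines from the lowest to the highest of 3 pools and lines joining naïve and injured groups of 1 age. Dao crosses below Ddo at both ages, from 15.5 to 0.512 TPM in young and from 14.9 to 0.336 TPM in middle-aged mice.

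Since astrocyte markers were lower in lesions, each gene was also set against the 9 astrocyte markers of the same pool, a ratio that needs no scaling between libraries. For every 1000 marker counts, the young naïve pools held 1.22 to 1.45 counts of Dao and the middle-aged naïve pools 1.02 to 1.74. The lesions held 0.0447 to 0.108 in young and 0.0195 to 0.161 in middle-aged mice. The ratio of Dao was therefore lower in every injured pool, with log2 differences between group means of -4.11 and -4.62.

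Against the same markers the remaining genes did not share a direction. Slc7a10 overlapped between naïve and injured pools at both ages, with log2 differences of -0.23 in young and -0.12 in middle-aged mice, whose sign turned when Gfap was left out of the marker sum (0.13 and 0.19). Slc1a4 was higher relative to the markers in all injured pools of both ages, by 0.77 and 0.76. Srr was higher by 0.65 in young and 0.66 in middle-aged mice, with overlap in the latter. Ddo differed by -0.04 in young mice with overlap, which became 0.33 without Gfap. In middle-aged mice Ddo differed by -1.15 with no overlap, which became -0.84 with overlapping pools without Gfap. These ratios are descriptions without a test, and Gfap made up the largest share of the marker sum.

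**Figure D4:**
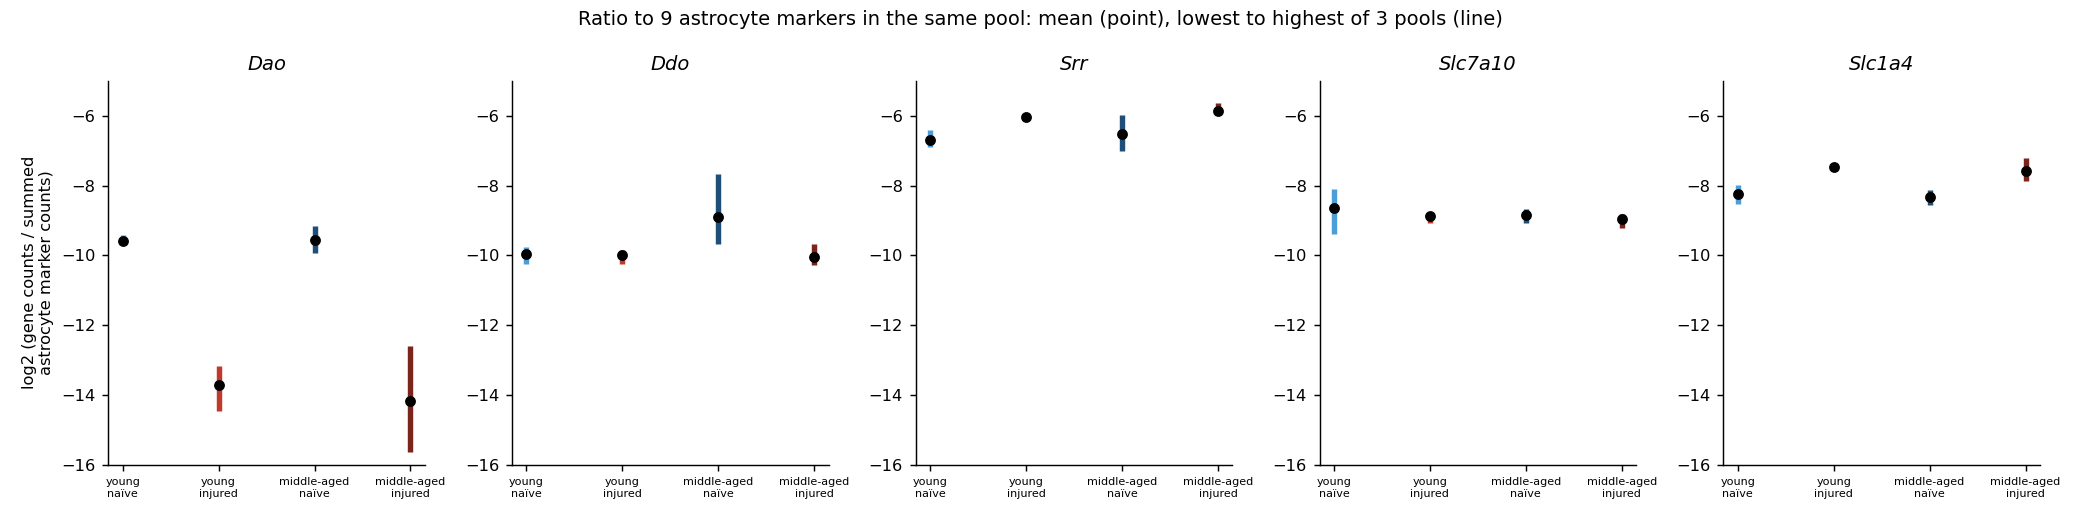
Log2 ratio of each gene's counts to the summed counts of 9 astrocyte markers in the same pool, with the group mean as a point and the range of 3 pools as a line. The difference for Dao is -4.11 in young and -4.62 in middle-aged lesions, while Srr and Slc1a4 lie higher in lesions by 0.65 to 0.77.

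Of the astrocyte markers, 8 of 9 fell in lesions at each age, with medians of -1.29 in young and -1.14 in middle-aged mice, beside medians of 0.00 and -0.03 over all genes, of which 26.3% and 29.3% were called lower. The astrocyte marker that fell most was Aldoc, a glycolytic aldolase, with log2 fold changes of -2.57 and -3.18 at the younger and older age, and Aldh1l1 did not pass the test (-0.13 and -0.17). Oligodendrocyte markers fell in 6 of 6 cases at each age, for example Mog, a myelin surface glycoprotein gene (-2.56 and -2.44). Each of these log2 falls was smaller than that of Dao, which was selected on its fall in lesions. That comparison is therefore a description with no test.

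The 5 genes with patterns most like that of Dao were A230001M10Rik, Grm3, Gm37069, Esrp1 and Ppp1r1b, with root mean square differences from 0.67 to 0.75 over the 12 pools. Grm3, a metabotropic glutamate receptor gene, had a Pearson r of 0.99 with Dao across the pools, which fall into naïve and injured clusters, so the value describes mainly that split. Its mean was 47.3 and 40.5 CPM in young and middle-aged naïve tissue and 4.09 and 2.82 CPM in the lesions. Esrp1, a splicing regulator gene, went from 14.5 and 14.4 CPM to 1.08 and 0.680 CPM. The genes most like Srr were Vta1 and Hbs1l, those most like Slc7a10 were Dpp6 and Sh3bp1, and those most like Slc1a4 were Gtf2i and Slc4a8, with differences from 0.12 to 0.16.

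Genes that supply or use the same amino acids were followed in 6 lists of 46 genes, of which 41 passed the filter on low counts. In young lesions 23 of these 41 were lower, 7 were higher and 11 did not pass the test, and in middle-aged lesions 23 were lower, 8 were higher and 10 did not pass. Over all genes tested, 26.3% were lower and 28.3% higher in young mice, and 29.3% lower and 29.2% higher in middle-aged mice. Median log2 fold changes over the 41 were -0.53 and -0.77. Pairs of values in the following paragraphs are log2 fold changes in young and then in middle-aged mice. The 5 genes not tested were Sdsl, Grin2d, Acox2, Hao1 and Hao2, each with 17 counts or fewer in every pool. Hao1, a peroxisomal hydroxyacid oxidase gene, was listed at 0 counts in the 6 naïve pools and at 2 to 6 counts in the 6 injured pools.

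Of 6 genes for L-serine synthesis and use, 3 were lower and 2 higher in lesions at each age. Over all genes, 26.3% and 29.3% were lower and 28.3% and 29.2% higher in young and middle-aged mice. The synthesis of L-serine, the substrate of serine racemase, runs through Phgdh, Psat1 and Psph, and all 3 fell at both ages. Phgdh, the first enzyme, changed by -0.76 and -1.37 (edgeR adjusted p = 0.00105 and 5.25e-06), Psat1 by -0.79 and -0.84, and Psph by -0.53 and -0.51. In contrast, Shmt1 and Shmt2, which turn serine into glycine, rose, Shmt1 by 1.73 and 1.72 and Shmt2 by 1.37 and 1.41. Sds, a serine dehydratase gene, did not pass at either age (-0.34 and -0.49).

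Glycine shares its binding site on the NMDA receptor with D-serine, and of 5 genes for its cleavage and transport 3 were lower in young and 4 in middle-aged lesions, with none higher, beside 26.3% and 29.3% of all genes lower. The glycine transporter Slc6a9 (GlyT1) fell (-2.03 and -2.07), from 367 to 89.9 CPM in young and from 245 to 58.4 CPM in middle-aged mice. Slc6a5 (GlyT2), the transporter of glycinergic neurons, fell too (-1.99 and -1.29). Amt, an enzyme of the glycine cleavage system, fell (-1.105 and -1.59), Gcsh passed only in the middle-aged comparison (-0.16 and -0.40), and Gldc did not pass (0.48 and -0.69).

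Of 6 carriers of serine and aspartate, 3 were lower and 2 higher in young lesions, and 3 were lower and 3 higher in middle-aged lesions, beside 26.3% and 28.3% of all genes in young and 29.3% and 29.2% in middle-aged mice. The glutamate and aspartate transporters Slc1a2 (-1.82 and -2.05), Slc1a3 (-1.52 and -2.17) and Slc1a1 (-0.97 and -1.05) fell. Slc1a5 (ASCT2), the closest relative of Slc1a4 in the list, rose by 2.23 and 2.53, from 2.91 to 13.7 CPM and from 2.31 to 13.5 CPM. Slc3a2, which encodes the heavy chain that pairs with Asc-1, rose by 0.96 and 1.18 where Slc7a10 fell. Slc38a5 was 0.44 higher without passing in young mice and rose by 0.94 in middle-aged mice.

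Of the NMDA and delta receptor subunit genes, 7 of 8 were called lower at each age, beside 26.3% of all genes in young and 29.3% in middle-aged mice, with medians of -2.09 and -1.77. Grin1, the obligatory NMDA subunit that binds glycine or D-serine, fell (-2.31 and -2.56), from 7.45 to 1.5001 CPM and from 8.39 to 1.42 CPM. Grin2a (-2.20 and -2.34) and Grin3a, another glycine-binding subunit (-1.03 and -1.17), fell as well. Grin2c fell in young mice (-2.36) and did not pass in middle-aged mice (-1.11), a difference between ages that was not called. Neuron markers were lower too, in 3 of 5 cases at each age, among them Snap25 (-1.83 and -1.63), whereas Slc17a6 rose by 1.52 in middle-aged mice, and the part of neuronal RNA in the subunit values was not tested.

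Of 7 genes for partners of serine racemase and for deacylases that remove D-amino acids from tRNA, 4 were lower in young and 3 in middle-aged lesions, and Disc1 was higher at both ages, beside 26.3% and 29.3% of all genes lower and 28.3% and 29.2% higher. Disc1 was under the floor in naïve tissue, at means of 0.168 and 0.160 CPM, against 1.63 and 1.25 CPM in lesions, so no fold is given. Pick1, a scaffold protein gene, fell (-0.83 and -0.98), as did Grip1 (-1.21 and -1.28). Dtd1, a tRNA deacylase gene, fell (-1.05 and -1.20), and Dtd2 fell in young mice only by the test (-0.56 and 0.04), a difference between ages that was not called.

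Peroxisomes house both oxidases and the catalase that clears the hydrogen peroxide they form. Catalase (Cat) fell (-0.78 and -1.05), from 251 to 146 CPM in young and from 229 to 110 CPM in middle-aged mice. The import gene Pex13 fell too (-0.36 and -0.41). Acox3 rose by 1.02 and 0.61, and Paox, a polyamine oxidase gene, by 1.94 and 2.10. Pex5, the receptor that carries proteins such as these oxidases into peroxisomes, did not pass (-0.32 and -0.12), and in all 3 of 9 genes fell and 2 rose at each age, near the shares of all genes that were lower (26.3% and 29.3%) and higher (28.3% and 29.2%). The median of the list was -0.32 in young and -0.12 in middle-aged mice.

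**Figure D5:**
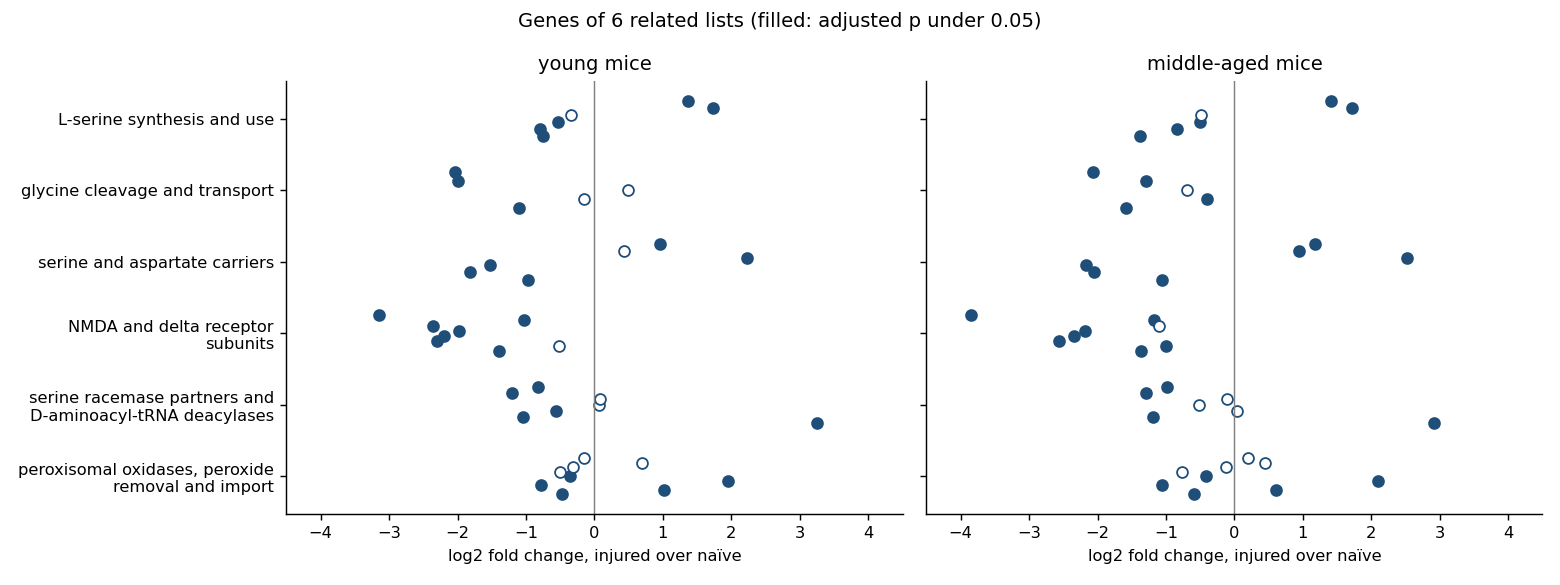
Log2 fold change from naïve to injured tissue for 41 genes in 6 lists, in young mice on the left and middle-aged mice on the right; each point is a gene, and filled points have an edgeR adjusted p under 0.05. Receptor subunits lie to the left at both ages (medians -2.09 and -1.77), whereas the other lists hold points on both sides in at least 1 panel. The point farthest right among the racemase partners is Disc1, a fitted value over naïve groups under the floor.

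Few of these genes were called between ages, near the share of all genes in each comparison. Between young and middle-aged naïve mice 2 of the 41 list genes were called, Slc6a9 (-0.58) and Slc1a1 (-0.84), both lower in middle-aged mice, and between injured mice 0 were, beside 3.80% and 1.15% of all genes. For the change of the injury effect with age 0 of the 41 were called, beside 0.139% of all genes.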

How the data were processed

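Naïve and injured white matter was cut from 20 µm cryosections by laser capture, RNA was amplified at library building, and 12 libraries were sequenced. The authors mapped reads to GRCm38 with TopHat 2.0.10 and bowtie 1.1.2 after FastQC 0.11.4, and deposited a raw count per gene from featureCounts. The annotation release and strand setting are not given in the sources used here. Of 46078 identifiers, 45143 had a symbol.

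Counts were fitted with edgeR 4.0.16 in R 4.3.3 (TMM, filterByExpr, quasi-likelihood F test, 1 coefficient per group, all 12 pools), with Benjamini-Hochberg adjustment over 15866 genes and a threshold of 0.05. The SE is the log2 fold change over the square root of F. Log2 CPM for likeness used a prior count of 2. Counting intervals for summed counts were 95% Clopper-Pearson intervals. Exon lengths, overlaps and 31-base words came from GENCODE M21 on GRCm38. The edgeR step was tested on simulated counts.

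The 5 genes, the lists and the markers were chosen with earlier results of these data known. Genes named were these 5, the genes of the fixed lists, the 5 genes most like Dao and the 2 most like each other gene. Alternatives were 3 other scalings, 2 other filters, DESeq2 1.42.0, a replicate block, only the pools compared, and each pool left out in turn. Same-numbered pools deviated together with correlations from -0.113 to 0.153, not all over 0.1, so the numbers were not taken to pair the pools, and p-values measure the spread between pools. Results for 3 further genes of the lists are not reported here.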

Additional observations from a re-analysis of the deposited data

How the results depend on the processing

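The settings compared were those listed with the processing. The falls of Slc7a10 at both ages and of Ddo, Srr and Slc1a4 in middle-aged mice passed the test under all of them. Dao kept its direction in lesions at both ages, but it was selected on that fall in these same pools, so this is a description. Pools left out one at a time moved the middle-aged log2 fold change of Dao from -6.33 to -5.05 and its difference between ages from -1.32 to -0.0352. Where calls changed, the cause was not tested.

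Ddo in young lesions crossed the threshold with upper-quartile scaling (-1.10, adjusted p = 0.0376), no filter (-1.04, 0.00424), DESeq2 (-1.04, 0.0308) and only the pools compared (-1.06, 0.00157), and with edgeR's replicate block (-1.10, 0.0333). Srr in young lesions crossed it with only the pools compared (-0.40, edgeR adjusted p = 0.0315) and ranged from -0.53 to -0.28 with single pools left out, crossing it without young naïve replicate 1. Ddo between naïve ages crossed it with no filter (1.24, 0.00377) and DESeq2 (1.26, 0.0450), and ranged from 0.42 to 1.55 with pools left out, crossing it without middle-aged naïve replicate 1. Slc1a4 between injured ages crossed it with only the pools compared (-0.44, edgeR adjusted p = 0.0493), and the age difference in the injury effect of Ddo with no filter (-1.56, 0.0469). Dao could not be tested between the injured groups alone, since it fell under the filter there.

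Small differences turned sign. Dao between naïve ages was -0.0042 with no filter and -0.0193 with the replicate block, and ranged from -0.26 to 0.20 with pools left out, as Srr did from -0.16 to 0.31. The difference between ages in the injury effect ranged from -0.46 to 0.0155 for Srr and from -0.36 to 0.13 for Slc7a10. Without Gfap among the markers, the log2 ratio difference turned positive for Ddo in young mice (0.33) and Slc7a10 at both ages (0.13 and 0.19). It stayed positive and grew for Srr (1.02 and 0.98) and Slc1a4 (1.14 and 1.07) in young and middle-aged mice.

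Counts of genes called by age moved most. Between naïve ages, 321 higher and 282 lower became 717 and 436 with no filter, 611 and 500 with DESeq2, and 26 and 45 with only the pools compared, with ranges of 136 to 484 and 125 to 315 with pools left out. Between injured ages, 38 and 144 became 121 and 316, 144 and 314, and 327 and 494 in the same order, with ranges of 6 to 36 and 38 to 104. For the difference of injury effects, 9 and 13 became 81 and 248 with no filter and 103 and 151 with DESeq2, and ranged from 1 to 21 and 2 to 35. The lower count there was 23 with library totals only and 20 with the replicate block. In 14 of 36 comparisons a pool deviated most like the pool of its own number in another group. The block gave 20 lower calls against 13, and other counts stayed within 1.5 times.

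Counts of the related lists stayed within that range too, from 7 to 9 higher and 19 to 26 lower, under settings that kept all pools. Depth limits Dao in lesions most, where 3 of 6 pools held 3 counts or fewer.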
